A study of Oryctolagus cuniculus with 6 samples.

Results

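The genes described are 5 that handle fatty acids or run sugar synthesis: ACSL1, ACSL6, HADHA, ANGPTL4 and FBP2. They were found on the array by gene name, description or accession, which gave 11 of the 43603 non-control probes, and they are 5 of 8131 genes with a symbol and a tested probe. ACSL6 has 5 probes, ACSL1 has 3, and HADHA, ANGPTL4 and FBP2 have 1 each. All 11 were well above background in all 12 channel measurements and were among the 30742 probes tested, and none was saturated. The genes were selected on their measured log2 ratios on these arrays: ACSL6 and FBP2 for frozen against control embryos, and ANGPTL4, HADHA, ACSL1 and FBP2 for the contrast of vitrified with frozen embryos. Their values in those comparisons are therefore given as descriptions. The level of ACSL6 in vitrified embryos was no criterion of the choice and is given with its test. It is not independent of the choice, since vitrified and frozen arrays carry controls of the same names and were fitted together.

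RNA came from blastocysts of New Zealand White rabbits at 6 days of age, and the study asked how embryos that had been cryopreserved differ in gene expression from embryos developed in vivo. Vitrified embryos had been moved to 20% dimethyl sulphoxide with 20% ethylene glycol and plunged in straws into liquid nitrogen. Frozen embryos had been taken to 1.5 M dimethyl sulphoxide, seeded with ice and cooled at 0.3 °C per minute to -35 °C before the plunge. Both kinds were warmed and transferred to recipient females, and viable embryos were collected, while control embryos were untreated. Treated and control groups thus differ in cryopreservation and in transfer, and these cannot be told apart. Each of 6 two-colour arrays set 1 treated RNA against 1 control RNA, with 3 biological replicates of each treatment. The treated RNA carried Cy5 in replicates 1 and 3 and Cy3 in replicate 2. Arrays with the same replicate number carry a control of the same name, so the vitrified and frozen comparisons may share their controls. Whether the same extract was used is not known.

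Between 44.7% and 58.0% of the probes were well above background in green and between 64.2% and 74.5% in red. The number of arrays, 3 per treatment, limits the precision. Of 13 trophectoderm markers fixed as a list, 9 had a tested probe with a symbol, and KRT8, GATA2, GATA3, TFAP2A and TFAP2C were well above background in all 12 channel measurements, as were the epiblast genes POU5F1 and OTX2. CDX2, NANOG and SOX2 had no tested probe with a symbol. In RNA of whole embryos, more cells of a type and more RNA per cell cannot be told apart.

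Fatty acids become usable to a cell once a long-chain acyl-CoA synthetase joins them to coenzyme A. ACSL1 and ACSL6 encode such synthetases: ACSL1 is the main form of liver, heart and fat, and ACSL6 is best known from brain, where it retains polyunsaturated fatty acids. The acyl-CoA can be built into lipids or burned in the mitochondrial β-oxidation cycle, in which HADHA, the alpha subunit of the trifunctional protein, carries the hydratase and the long-chain hydroxyacyl-CoA dehydrogenase. ANGPTL4 is a secreted inhibitor of lipoprotein lipase, the enzyme that frees fatty acids from lipoproteins, and is a well-known target of PPAR transcription factors and of hypoxia. FBP2 is the muscle form of fructose-1,6-bisphosphatase, which removes a phosphate in gluconeogenesis against the direction of glycolysis. Early embryos take energy from fatty acids as well as from pyruvate and glucose.

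The probes are 60 bases long, and their sequences show what each value measures and how far ACSL1 can be told from ACSL6. The probes of each synthetase overlap: neighbours share 20 and 19 bases in ACSL1 and 30, 30, 30 and 2 bases in ACSL6. They are thus repeated readings of a short stretch of transcript, 141 bases in ACSL1 and 208 in ACSL6, and no independent replicates. In the coordinates of the array design, whose genome build is not given in the sources used here, the ACSL1 probes lie on the minus strand at chr2:62106715-62107847 and the ACSL6 probes on the minus strand at chr3:15034276-15045251. The ACSL1 probe nearest the 5′ end and 3 of the 5 ACSL6 probes cover more genome than their 60 bases, so each crosses at least 1 intron. Over the aligned stretch below, capitals mark the bases that are identical in both genes.
ACSL1: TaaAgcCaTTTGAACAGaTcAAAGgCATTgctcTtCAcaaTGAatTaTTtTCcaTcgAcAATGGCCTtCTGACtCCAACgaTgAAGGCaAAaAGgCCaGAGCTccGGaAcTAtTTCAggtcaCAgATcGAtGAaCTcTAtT
ACSL6: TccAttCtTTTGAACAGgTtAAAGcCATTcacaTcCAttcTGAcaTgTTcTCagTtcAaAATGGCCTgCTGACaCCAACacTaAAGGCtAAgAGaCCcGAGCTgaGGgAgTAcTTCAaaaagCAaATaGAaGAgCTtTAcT
The stretches aligned without a gap over 141 bases and were identical at 91 of them, 64.5%. The 50 differing bases fell unevenly over the 3 codon phases, with 32, 13 and 5 in each. The HADHA probe lies on the plus strand at chr2:159705597-159705656 and the FBP2 probe on the minus strand at chr1:73562602-73562661, while the design gives no position for the ANGPTL4 probe. They read as follows, in lower case throughout.
HADHA: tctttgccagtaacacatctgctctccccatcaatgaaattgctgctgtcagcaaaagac
ANGPTL4: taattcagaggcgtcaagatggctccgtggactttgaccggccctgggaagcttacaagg
FBP2: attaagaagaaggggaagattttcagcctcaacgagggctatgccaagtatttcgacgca
The longest run that any of the 11 probes shared, on the same strand, with a probe outside these genes was 13 to 16 bases. The nearest named relatives on the chromosomes are FBP1, the liver form of the phosphatase, whose probe lies 39368 bases from that of FBP2, and HADHB, the beta subunit of the trifunctional protein, whose probe lies 75904 bases from that of HADHA.

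The genes had a shared picture on the arrays. In frozen embryos every one of the 11 probes was above the control on all 3 arrays, a pattern found in 15.7% of tested probes. In vitrified embryos ACSL6 was the gene with the highest ratio, HADHA and ANGPTL4 were below the control on all 3 arrays, and ACSL1 and FBP2 lay on both sides of it. Being below the control on every vitrified array and above it on every frozen array held for 3 of the 11 probes (HADHA, ANGPTL4 and the middle ACSL1 probe), against 1.4% of tested probes. Every frozen array was above every vitrified array for 9 of the 11 probes, against 4.87% of tested probes, and the exceptions were 2 probes of ACSL6. These counts follow from how the genes were chosen. Values below are log2 ratios of treated over control, in which 1 is a 2-fold difference, on each array and then as the fitted value with its standard error (SE) from limma. Where a gene has several probes, the brightest stands for it.

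**Figure D1:**
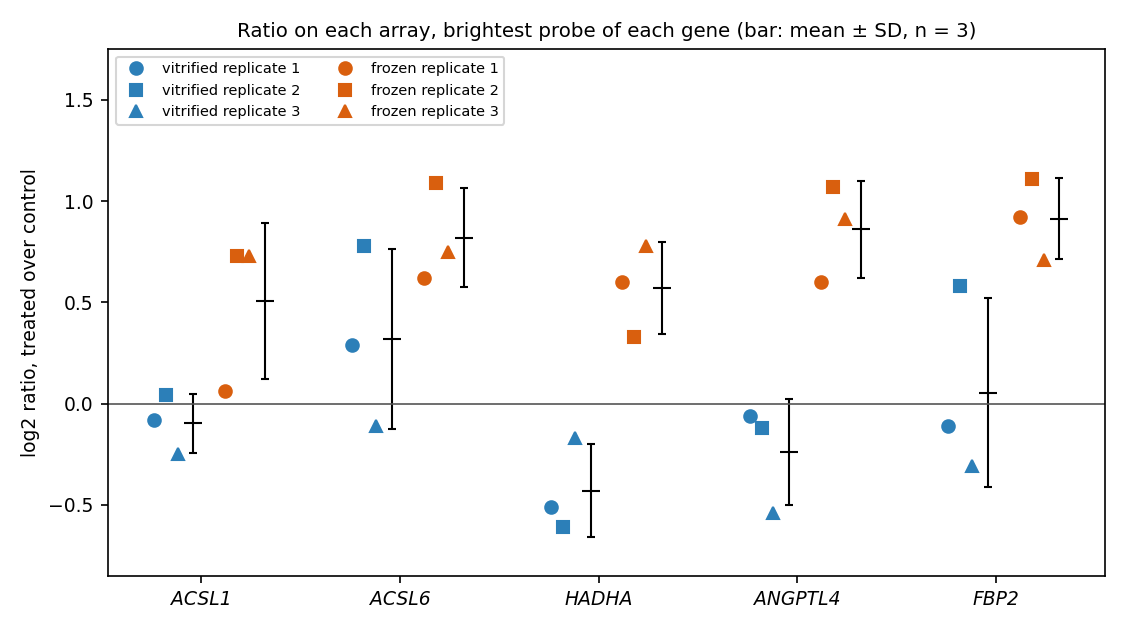
Log2 ratio of treated over control on each of the 6 arrays for the brightest probe of each gene, with vitrified arrays in blue, frozen arrays in orange and bars for the mean ± SD of 3 arrays. All frozen points are above 0, those of HADHA at 0.33 to 0.78 and of FBP2 at 0.71 to 1.11, while all vitrified points of HADHA and ANGPTL4 are below 0.

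ACSL6 rose in frozen embryos and stood above the control on 2 of 3 vitrified arrays. On the frozen arrays its brightest probe read 0.62, 1.09 and 0.75 in replicates 1, 2 and 3, and on the vitrified arrays 0.29, 0.78 and -0.11. The highest vitrified array thus lay above the lowest 2 frozen arrays, and vitrified replicate 3 was the only array below the control. With the fitted dye term taken out, the arrays read 0.90, 0.82 and 1.02 in frozen and 0.56, 0.51 and 0.17 in vitrified embryos, with no overlap and none below the control. Only replicate 2 had swapped dyes, so this term cannot be told apart from replicate 2. It was fitted on these same arrays, so the lack of overlap is a description of the fit. The fitted value was 0.91 ± 0.11 (SE, n = 3 arrays) in frozen embryos, a 1.88-fold increase, and 0.41 ± 0.11 in vitrified embryos, a 1.33-fold difference. The vitrified value did not pass the threshold, with an adjusted p of 0.186 from limma, and over the 5 probes the adjusted p was between 0.186 and 0.297. Over 18 alternative settings the limma adjusted p of the brightest probe ran from 0.0221, with array weights, to 0.834, and it was past the threshold in 1 of them.

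The other 4 ACSL6 probes read alike, and on 3 of the 5 probes every frozen array was above every vitrified array. Their fitted values were 0.94 to 1.02 in frozen and 0.29 to 0.39 in vitrified embryos. On each of the 5 probes vitrified replicate 3 was below 0, from -0.22 to -0.11, and frozen replicate 2 was highest, from 1.09 to 1.38. The probe farthest to the 5′ end read 0.59, 1.16 and 0.93 on the frozen arrays and 0.34, 0.49 and -0.16 on the vitrified arrays.

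ACSL1 stood higher in frozen embryos on 2 of 3 arrays and near the control elsewhere. Its brightest probe read 0.06, 0.73 and 0.73 on the frozen arrays and -0.08, 0.04 and -0.25 on the vitrified arrays. Frozen replicate 1 lay close to the vitrified arrays, just above the highest of them. The fitted value was 0.55 ± 0.14 (SE, n = 3) in frozen embryos and -0.05 ± 0.14 in vitrified embryos, and it was 0.73 in frozen embryos when frozen replicate 1 was left out. The middle probe of the gene gave 0.51 in frozen and -0.07 in vitrified embryos, and the probe across the intron gave a smaller frozen value of 0.30.

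**Figure D2:**
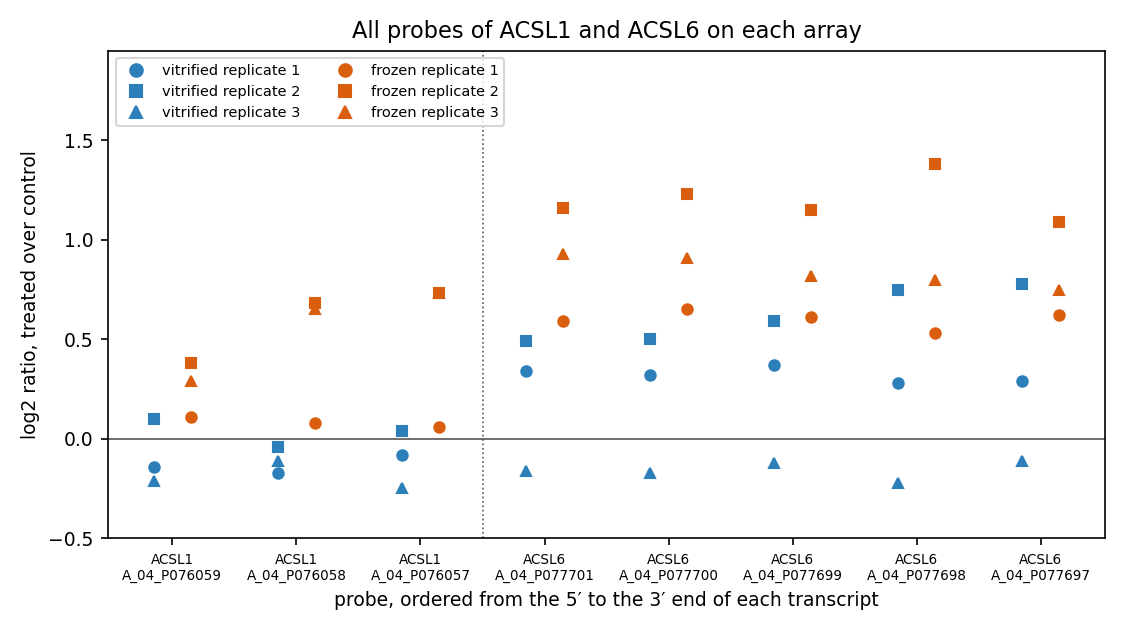
Log2 ratio of treated over control on each array for the 3 probes of ACSL1 and the 5 probes of ACSL6, ordered from the 5′ to the 3′ end of each transcript, with vitrified arrays in blue and frozen arrays in orange. Vitrified replicate 3 is below 0 on every ACSL6 probe (-0.22 to -0.11), and at the 3′ probe of ACSL1 the points of frozen replicates 2 and 3 coincide at 0.73.

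Of the other synthetases with a tested probe, ACSL5 lay on the opposite side. It read -1.05, -1.07 and -0.98 on the frozen arrays and -0.85, -0.07 and 0.22 on the vitrified arrays. All 3 frozen arrays were thus near a 2-fold lower level, with a fitted value of -1.02 ± 0.19, which did not pass the test, and its 3 probes gave -1.02 to -0.65. ACSL3, a synthetase of the endoplasmic reticulum and lipid droplets, was at 0.26 ± 0.09 in frozen and -0.02 ± 0.09 in vitrified embryos. ACSL4, which prefers arachidonic acid, was at 0.00 ± 0.11 and -0.02 ± 0.11 by its brightest probe, while its 3 probes ranged from -0.71 to 0.00 in frozen and from -0.14 to 0.03 in vitrified embryos.

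HADHA read below the control on the vitrified arrays and above it on the frozen arrays, without passing limma's test in either treatment. The frozen arrays read 0.60, 0.33 and 0.78 and the vitrified arrays -0.51, -0.61 and -0.17, so the groups lay on opposite sides of the control with no overlap. The fitted values were 0.52 ± 0.11 (SE, n = 3) in frozen and -0.48 ± 0.11 in vitrified embryos, and the difference was -1.0 ± 0.15, a level 2.00-fold lower in vitrified embryos. Among all tested probes this was the 81st largest difference in size, a rank that follows from how the gene was chosen. The limma adjusted p of the difference was 0.264.

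ANGPTL4 had the widest gap between the treatments. It read 0.60, 1.07 and 0.91 on the frozen arrays and -0.06, -0.12 and -0.54 on the vitrified arrays. All frozen arrays were at least 0.60 above the control, whereas vitrified replicates 1 and 2 stayed close to it and replicate 3 lay lower. With the dye term taken out, vitrified replicate 1 was at 0.06, just above the control. The fitted values were 0.90 ± 0.12 (SE, n = 3) and -0.20 ± 0.12, and the difference was -1.10 ± 0.17, or 2.15-fold. It was the 52nd largest of all tested probes, a rank that follows from how the gene was chosen. The limma adjusted p of the difference was 0.282.

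FBP2 was about 2-fold above the control in frozen embryos. The frozen arrays read 0.92, 1.11 and 0.71 and the vitrified arrays -0.11, 0.58 and -0.31. Vitrified replicate 2 was the highest of its group, below the lowest frozen array, and the other vitrified arrays were under the control. With the dye term taken out, the vitrified arrays read 0.16, 0.31 and -0.04, so that replicate 3 alone lay below the control. The fitted value was 1.00 ± 0.12 (SE, n = 3) in frozen embryos, a 2.00-fold increase, and 0.14 ± 0.12 in vitrified embryos, with a difference of -0.86 ± 0.16, or 1.81-fold.

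Counted over all probes, limma called 57 of 30742 in frozen embryos (0.185%) and 27 higher (0.0878%) at an adjusted p of 0.05, with 4066 at an unadjusted p under 0.05, and 5 of the 11 probes were among them, 4 of ACSL6 and that of FBP2. No probe of ACSL1, HADHA or ANGPTL4 passed. In vitrified embryos 0 of the 11 passed, against 6 of all tested probes (0.0195%), and 5345 probes had an unadjusted p under 0.05. The difference between vitrified and frozen embryos gave 0 calls by limma among the 11 and 0 among all probes (0%), with 2319 at an unadjusted p under 0.05 and a smallest adjusted p of 0.223. The 5 frozen calls became 0 without any 1 of vitrified replicates 2 and 3 and frozen replicates 1, 2 and 3, and 7 without vitrified replicate 1. Frozen calls over all probes were then 0 to 3 without any of the former arrays and 513 (1.67%) without vitrified replicate 1. The 5 calls of these genes also became 0 with slide as a covariate, no dye term, median centring or the scanner's own log ratio. Frozen calls over all probes were then 0, 8 (0.026%), 33 (0.107%) and 1 (0.00325%) in that order. The frozen values of ACSL6 and FBP2 stayed between 0.82 and 1.03 in these 4 settings. With the probes of a gene averaged, ACSL6 and FBP2 also missed the threshold, with limma adjusted p of 0.0628 and 0.0625. Over 18 alternatives each of these genes was past it in 8, and the adjusted p ran from 0.00169 to 1 for ACSL6 and from 0.00174 to 1 for FBP2.

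Vitrified and frozen arrays of the same replicate number can also be paired, since each pair carries a control of the same name. Whether it was the same extract is not known, so a difference between controls may be part of each value. The difference in log2 ratio was below 0 in all 3 pairs for all 11 probes, as in 14.7% of tested probes, a count that follows from how the genes were chosen. For HADHA it was -1.11 in replicate 1, whose arrays share slide 1, -0.94 in replicate 2, whose arrays lie on different slides, and -0.96 in replicate 3, whose arrays share slide 2 (-1.0 ± 0.09, SD, n = 3). That spread was the narrowest among the 11 probes. The HADHA control signals of these pairs differed by 0.69, 0.36 and 0.53, and that difference is part of each value. For ANGPTL4 the pairs gave -0.67, -1.19 and -1.45 (-1.10 ± 0.40), and for FBP2 -1.03, -0.52 and -1.02 (-0.86 ± 0.29). ACSL1 ranged most widely of the 5 genes, with -0.15, -0.69 and -0.98 (-0.61 ± 0.42), and ACSL6 gave -0.34, -0.31 and -0.86 (-0.50 ± 0.31).

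The signals of each channel are given beside the ratios. A shift shared by both channels of an array leaves its ratio unchanged, so these signals cannot settle which side of a ratio moved. The signals are log2 values after loess within arrays and quantile normalisation of average intensity between arrays, and are compared only within a probe. For FBP2 and ANGPTL4 the mean treated signals differed more between vitrified and frozen arrays than the mean control signals. FBP2 read 11.96 to 12.31 in the 3 frozen samples, 11.17, 11.25 and 10.88 in the vitrified samples and 10.66 to 11.28 in the 6 control measurements, so frozen embryos stood apart and vitrified embryos lay within the range of the controls. ANGPTL4 read 8.68, 9.29 and 9.24 in frozen embryos, 8.19, 7.90 and 8.08 in vitrified embryos and 8.02 to 8.63 in controls. The lowest frozen signal was thus above the highest control, and 1 vitrified signal was below the lowest control.

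For HADHA and ACSL1 the mean control signals differed more between vitrified and frozen arrays than the mean treated signals. HADHA read 12.67, 12.02 and 11.99 in frozen and 12.25, 11.43 and 11.56 in vitrified embryos, and 11.20 to 12.76 in controls, a span that takes in every treated signal. Its controls were 0.69, 0.36 and 0.53 higher on the vitrified than on the frozen array of the same number, although the labels give both the same name. Averaged over the pairs, the treated signal was 0.48 lower and the control signal 0.52 higher on vitrified than on frozen arrays. Over all tested probes the median size of this control difference was 0.13, and 2.28% of probes had one at least as large as that of HADHA.

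ACSL1 read 8.49, 8.32 and 8.38 in frozen and 8.27, 8.38 and 8.13 in vitrified embryos, and 7.59 to 8.43 in controls. Treated signals overlapped and differed by 0.14 on average, while the controls of frozen replicates 2 and 3, at 7.59 and 7.64, lay under the other 4, at 8.34 to 8.43. Its controls were 0.47 higher on vitrified arrays, a difference reached by 3.57% of tested probes. ACSL6 lay between, with treated signals of 14.51 to 14.91 in frozen and 14.38 to 14.66 in vitrified embryos and controls of 13.82 to 14.49. Its treated signal was 0.27 lower and its control signal 0.23 higher on vitrified arrays. What made controls of the same name differ between arrays was not tested.

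**Figure D3:**
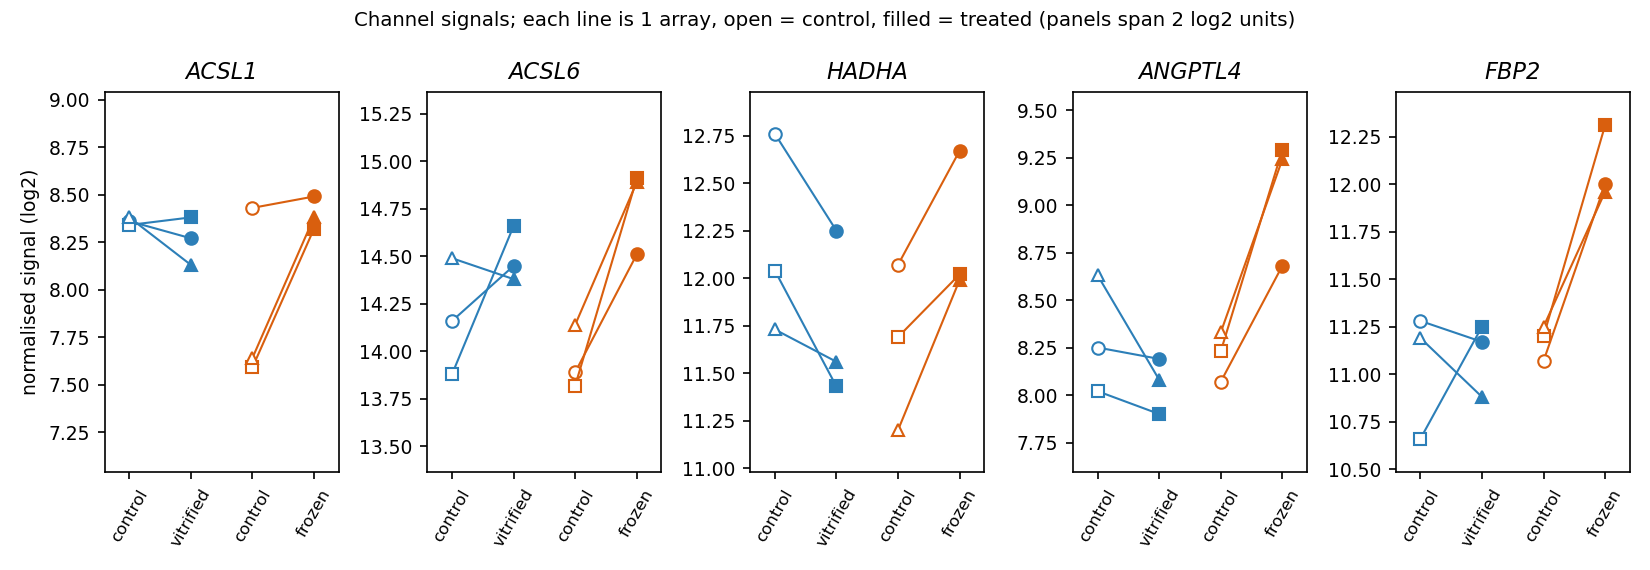
Normalised log2 signal of the control channel (open) and the treated channel (filled) of each array for the brightest probe of each gene, with 1 line per array, blue for vitrified and orange for frozen arrays, and circles, squares and triangles for replicates 1, 2 and 3. Every panel spans 2 log2 units. For FBP2 the frozen signals (11.96 to 12.31) lie above all others, whereas for HADHA the controls span 11.20 to 12.76.

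By mean, frozen embryos had the highest normalised signal of every gene. For FBP2 and ANGPTL4 the frozen range lay above both others and the vitrified and control ranges overlapped. For ACSL6 the frozen and vitrified ranges overlapped and all frozen signals were above all controls. For ACSL1 and HADHA neighbouring ranges overlapped throughout.

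The wider pathways around these genes, listed in 12 groups, held 169 other genes, of which 102 had a tested probe with a symbol. By limma none of the 102 passed in frozen embryos, where 17 of 8131 genes with a symbol (0.209%) passed and 22 of the 102 had an unadjusted p under 0.05, as did 13% of all genes. None passed in vitrified embryos, where 1 gene (0.0123%) passed and 19 of the 102 had an unadjusted p under 0.05 (16.6% of all genes), or in the difference, where 0 genes passed and 12 of the 102 had an unadjusted p under 0.05 (7.79% of all genes). In frozen embryos 51 of the 102 lay above and 51 below the control, with a median of 0.00, and 49.1% of all genes lay above it. In vitrified embryos 45 lay above the control, against 49% of all genes, and 49 were higher in vitrified than in frozen embryos, against 53.2% of all genes. The pathways as a whole thus lay below the control about as often as above it.

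Of the 12 groups, mitochondrial β-oxidation had the largest share of genes with every frozen array above every vitrified array. Of its 12 measured genes other than HADHA this held for 5, against 4.94% of all genes. These were HADHB, HADH, ACADM, ACAA2 and ETFA. ETFA differed little, at 0.09 ± 0.11 in frozen and -0.19 ± 0.11 in vitrified embryos, and its frozen replicate 3 was at -0.13. HADHB, which supplies the thiolase of the trifunctional protein, read 0.52, 0.08 and 0.48 on the frozen arrays and -0.07, -0.68 and -0.34 on the vitrified arrays, and its fitted values were 0.28 ± 0.10 and -0.44 ± 0.10. HADH, the dehydrogenase for shorter chains, read 0.52, 0.20 and 0.51 against -0.43, -0.50 and -0.10, with fitted values of 0.36 ± 0.10 and -0.39 ± 0.10. Both genes thus lay on opposite sides of the control in the 2 treatments on every array, as HADHA did. They were the only 2 of the 12 genes that did so.

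ACADM, the medium-chain dehydrogenase that opens the cycle, was at 0.50 ± 0.12 in frozen and -0.05 ± 0.12 in vitrified embryos. ACAA2, the thiolase that closes it, was at 0.06 ± 0.16 and -0.61 ± 0.16, the lowest vitrified value of the list. ACADVL, which acts on very long chains, was at 0.05 ± 0.13 in both. At the other end ACADSB, a dehydrogenase of branched chains, was at -0.09 ± 0.10 in frozen and 0.29 ± 0.10 in vitrified embryos, and ACAD9, an assembly factor of complex I, had the lowest frozen value, -0.18 ± 0.15. The list medians were 0.06 in frozen and -0.09 in vitrified embryos, against 0.00 over all genes in both. In the control channel HADHB and HADH were 0.23 and 0.21 higher on vitrified arrays, and in the treated channel 0.49 and 0.55 lower. For ACAA2 the control signal was 0.39 higher on vitrified arrays and the treated signal 0.29 lower. For ACADM the treated signal was 0.65 lower and the control signal differed by -0.10.

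**Figure D4:**
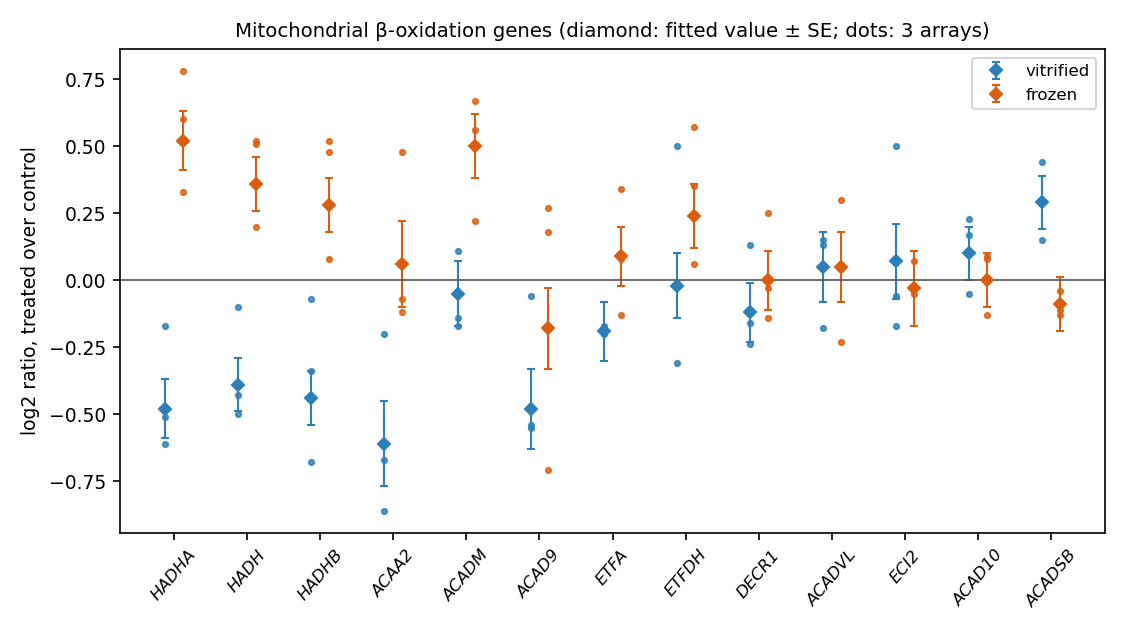
Log2 ratio of treated over control for the 13 measured genes of mitochondrial β-oxidation, as the fitted value ± SE (diamonds) and the 3 arrays (dots), with vitrified embryos in blue and frozen embryos in orange. HADHA, HADH and HADHB lie below 0 in vitrified and above 0 in frozen embryos, while ACADVL is at 0.05 in both and ACADSB is higher in vitrified embryos.

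The carnitine shuttle, which brings acyl groups into mitochondria, had 3 measured genes, all above the control in both treatments without passing. CPT2 was at 0.24 ± 0.14 in frozen and 0.12 ± 0.14 in vitrified embryos, SLC25A20, the carrier, at 0.33 ± 0.23 and 0.12 ± 0.23, and CROT at 0.17 ± 0.12 and 0.16 ± 0.12. CPT1A had no tested probe with a symbol. In the peroxisome, HSD17B4, the bifunctional enzyme there, was at 0.28 ± 0.11 in frozen and -0.33 ± 0.11 in vitrified embryos, though its arrays overlapped. ABCD3, a transporter of the peroxisomal membrane, held the lowest value of its list in both treatments, -0.40 ± 0.11 and -0.52 ± 0.11. AMACR was highest of that list in vitrified embryos, at 0.04 ± 0.09, and PECR in frozen embryos, at 0.29 ± 0.10.

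None of the 6 measured genes of ketone body metabolism passed the test. The highest vitrified value was that of ACAT1, which makes acetoacetyl-CoA, at 0.25 ± 0.10, and the lowest frozen value that of BDH1, which interconverts the ketone bodies, at -0.26 ± 0.11.

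Genes for the activation and uptake of fatty acids lay on both sides of the control. Of 11 measured genes other than these, 6 were above and 5 below the control in frozen embryos. FABP5, a cytosolic fatty acid carrier, had the lowest frozen value, reading -0.60, -1.38 and -1.41 on those arrays and -0.94, 0.20 and -0.10 on the vitrified arrays, with fitted values of -1.10 ± 0.24 and -0.25 ± 0.24. FABP3, the carrier of heart and muscle, was at 0.40 ± 0.14 in frozen and -0.10 ± 0.14 in vitrified embryos. FABP1, the liver carrier, had the lowest vitrified value, -0.42 ± 0.16, and DBI, which binds acyl-CoA, the highest, 0.27 ± 0.10.

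The partners of ANGPTL4 in the lipase system lay near or below the control. LPL, the lipase it inhibits, read 0.04, -0.13 and -0.32 on the frozen arrays and -0.54, 0.41 and 0.30 on the vitrified arrays, with fitted values of -0.09 ± 0.18 and 0.10 ± 0.18. Of the 6 other measured genes of the lipase system 1 was above the control in frozen embryos, LIPC at 0.02 ± 0.10, and the lowest was LIPG, the endothelial lipase, at -0.23 ± 0.21. VLDLR, a lipoprotein receptor, was at -0.16 ± 0.15 in frozen and -0.43 ± 0.15 in vitrified embryos. LMF1, PLIN2 and PNPLA2 had no tested probe with a symbol. Among 8 genes of lipid droplets and lipolysis the frozen values lay between -0.24 (DGAT2) and 0.07 (FITM2) and the vitrified values between -0.12 (LIPA) and 0.35 (DGAT1).

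The PPAR receptors and their partners were slightly above the control in frozen embryos in 10 of 10 measured genes by their brightest probes, with a median of 0.14, and 49.1% of all genes lay above it. None passed the test. PPARD read 0.50, 0.32 and 0.19 on the frozen arrays and -0.03, 0.08 and 0.05 on the vitrified arrays, with fitted values of 0.34 ± 0.10 and 0.04 ± 0.10. PPARA was at 0.08 ± 0.10 and -0.08 ± 0.10 by a probe well above background in 5 of 12 measurements, and its 4 probes ranged from -0.33 to 0.08 in frozen embryos. PPARG was at 0.15 ± 0.21 and 0.16 ± 0.21. UCP2, a mitochondrial carrier, was highest in both treatments, at 0.67 ± 0.18 and 0.96 ± 0.18, and the lowest values were those of RXRB in frozen embryos, at 0.02 ± 0.09, and PPARGC1A in vitrified embryos, at -0.10 ± 0.16.

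Of 11 measured hypoxia genes, 4 were above the control in frozen embryos, with a median of -0.19, and none passed the test. BNIP3, a mitophagy receptor, was lowest in both treatments, at -0.57 ± 0.22 in frozen and -0.61 ± 0.22 in vitrified embryos. EGLN3, an oxygen-sensing hydroxylase, was highest, at 0.53 ± 0.11 and 0.31 ± 0.11. The 7 genes of energy-sensing kinases and their targets stayed between -0.08 (PRKAG2) and 0.15 (PRKAA2) in frozen embryos and between -0.16 (PRKAA2) and 0.12 (ACACA) in vitrified embryos.

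Around FBP2, the other genes of gluconeogenesis lay near the control. Of 11 measured genes, 5 were above and 6 below it in frozen embryos, with a median of -0.01. FBP1, the liver form of the same enzyme, read -0.08, -0.21 and 0.26 on the frozen arrays and 0.32, -0.25 and -0.38 on the vitrified arrays, with fitted values of -0.05 ± 0.15 and -0.15 ± 0.15. The fitted FBP2 value in frozen embryos, 1.00 ± 0.12, was thus not seen at the single FBP1 probe, and the difference between these genes was not tested. The annotation column of the FBP1 and FBP2 probes lists 1 transcript in common, and which gene that transcript belongs to was not settled. PCK2, the mitochondrial carboxykinase, was at 0.20 ± 0.15 and 0.11 ± 0.15, and PC, PCK1 and PFKL had no tested probe with a symbol.

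G6PC3, a glucose-6-phosphatase expressed in many tissues, had the highest value of the gluconeogenesis list in both treatments, 0.24 ± 0.12 in frozen and 0.58 ± 0.12 in vitrified embryos. The lowest were LDHB in frozen embryos, at -0.47 ± 0.12, and GOT1 in vitrified embryos, at -0.45 ± 0.17. Among 10 genes that act on the same sugar phosphates, such as phosphofructokinases and aldolases, 4 were above the control in frozen embryos. PFKM, the muscle phosphofructokinase that runs opposite to FBP2, was at -0.08 ± 0.16 and -0.04 ± 0.16, and PFKP at -0.23 ± 0.26 and 0.16 ± 0.26. ALDOC was lowest in both treatments, at -0.51 ± 0.16 and -0.45 ± 0.16, and the highest were PFKFB4 in frozen embryos, at 0.28 ± 0.12, and TIGAR in vitrified embryos, at 0.20 ± 0.11.

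Over the 102 genes, 4 lay below the control on every vitrified array and above it on every frozen array, as HADHA and ANGPTL4 did, among them HADHB, HADH and PFKFB2. That is 3.92%, against 1.33% of all genes with a symbol. Every frozen array lay above every vitrified array in 11 genes, 10.8% against 4.94%. Besides the 5 of β-oxidation and PFKFB2, they included ACSL3, FABP3, PPARD and NCOA1.

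Genes with the most similar course over the 6 arrays were taken from 1063 with an SD of at least 0.3. The measure was Pearson's r of the dye-adjusted ratios, as a description over arrays that share control names and slides. For HADHA they were RLIM (r = 0.992), HADH (0.992) and RBBP7 (0.989), and 43 genes had an r above 0.9. For ANGPTL4 they were HADHB (0.982), TDRKH (0.975) and ARHGAP25 (0.975), with 34 such genes. For FBP2 they were ASZ1 (0.995), PPP4R1 (0.990) and DSG2 (0.975), of which ASZ1 also had a like size of change, 1.12 in frozen and 0.10 in vitrified embryos. For ACSL1 they were UBE2T (0.993), ATPAF1 (0.989) and WLS (0.986), and for ACSL6 CDO1 (0.990), HSD17B11 (0.957) and COX11 (0.953).

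Marker genes of cell types are given for both treatments, and none passed limma's test of vitrified minus frozen embryos, as 0 of all probes did. The epiblast markers POU5F1 and OTX2, 2 measured of 8, were at -0.82 ± 0.22 and -0.51 ± 0.13 in frozen and -0.09 ± 0.22 and -0.11 ± 0.13 in vitrified embryos, without passing. Trophectoderm markers were above the control in 7 of 9 in both treatments, with medians of 0.26 in frozen and 0.14 in vitrified embryos, and on single arrays of 0.09 to 0.24 and -0.01 to 0.33. All 3 measured of 9 blood markers (HBA, HBB2 and ALAS2) were above the control in both, and their median over arrays was between 1.78 and 2.52 in vitrified and between 0.47 and 2.33 in frozen embryos. Endoderm and yolk sac markers, 9 of 14 measured, had medians of -0.97 to -0.71 on the frozen arrays and -0.62 to 0.32 on the vitrified arrays, and 1 of the 9, APOA2, was called lower in frozen embryos, at -1.0 ± 0.12. The 3 measured of 6 uterine markers had medians of 0.24 to 0.79 on frozen and 0.15 to 1.80 on vitrified arrays. Their part in the values of the 5 genes was not tested.

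Muscle markers are given beside FBP2, the muscle form of its enzyme. Of 13 muscle markers 7 were measured, and 2 lay above the control in frozen embryos, MYOG at 0.27 ± 0.10 and DES at 0.02 ± 0.10. Their median was -0.73 to 0.02 on the frozen arrays and -0.45 to 0.13 on the vitrified arrays, while FBP2 read 0.71 to 1.11 on the frozen arrays. TNNC1, a troponin of slow and heart muscle, was lowest in frozen embryos, at -1.21 ± 0.24. Whether muscle cells had a part in the FBP2 values was not tested.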

How the data were processed

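The authors deposited scanner output of Agilent Feature Extraction 10.10.1.1. Per the file headers it holds, for each channel, the mean intensity of every spot and its median local background, not normalised. The deposited log10 ratio, red over green, was computed by the scanner software after background subtraction and dye normalisation, per the file headers, and other columns hold flags and annotation. In limma 3.58.1 (R 4.3.3) intensities were background-corrected (normexp, offset 50) and loess-normalised within arrays with control spots at weight 0. Outlier spots were left out and spots of a probe averaged. The test took probes that were well above background in 3 or more of the 12 channel measurements. The log2 ratio was fitted on all 6 arrays with a coefficient per treatment and a dye term (3 residual degrees of freedom), followed by eBayes and Benjamini-Hochberg adjustment over all 30742 probes at 0.05. No array was dropped or imputed. Channel signals were quantile-normalised on average intensity.

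Symbols came from the files' accessions and names and from RefSeq's rabbit genes (mOryCun1.1): 21369 probes had 1 symbol, 1318 a gene number only, 213 several genes and 20703 none. The 5 genes, the gene lists and the rules were chosen with earlier results of these data known. The list genes named are those past the test, the extremes of each list and some fixed by name. The genes named for a pattern over the arrays were picked after their values were seen. Values of some list genes are not reported here. An exact test of 3 against 3 cannot go below 0.1, so none was run.

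Arrays of the same replicate number carry a control of the same name per the labels, which pairs them. The correlation of paired deviations from the group means was 0.0175, 0.594 and 0.165. Replicate 2 also shares the swapped dyes, so the dye term cannot be told apart from replicate 2. Slide 1 held vitrified replicate 1 and frozen replicates 1 and 2, and slide 2 the other 3 arrays. Nothing says whether replicates were single embryos or pools. The fit was tested on simulated data. Alternatives covered background, normalisation, filter, dye, block, slide, spread, weights, threshold, probe averaging and each array left out, and, chosen after seeing the data, flagged spots kept.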

Additional observations from a re-analysis of the deposited data

Results flagged for a closer look

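HADHA and ANGPTL4 went opposite ways in the 2 treatments: every vitrified array was below the control and every frozen array above it. The difference of vitrified minus frozen embryos was -1.0 for HADHA and -1.1 for ANGPTL4 on the log2 scale. Both genes were chosen on this contrast, so this was not tested independently here, and neither difference passed limma's test over all probes. With the fitted dye term taken out, vitrified replicate 1 of ANGPTL4 was at 0.06, and its fitted vitrified value was -0.20 ± 0.12. For HADHA the treated signal was 0.48 lower and the same-named control signal 0.52 higher on vitrified than on frozen arrays. The same pattern was found in 1.4% of tested probes.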

How the results depend on the processing

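There were 18 alternatives to each comparison with the control and 19 to the contrast. The brightest probe of every gene kept its direction, except in vitrified embryos without vitrified replicate 2. There FBP2 was -0.06 and ACSL1 was 0.00. FBP2 in vitrified embryos reached 0.24 with another array left out, and ACSL1 was -0.05 in the main fit. Over these alternatives the frozen value lay between 0.40 and 0.85 for ACSL1, 0.82 and 1.03 for ACSL6, 0.47 and 0.57 for HADHA, 0.83 and 1.15 for ANGPTL4 and 0.90 and 1.21 for FBP2. The number of calls depended more on the settings. The 5 probes called in frozen embryos became 0 with the scanner log ratio, median centring, no dye term or the slide as a covariate, and 0 to 7 with 1 array left out. With 1 array left out, 0 to 513 of all 30742 probes were called in frozen embryos, the most without vitrified replicate 1. With the probes of a gene averaged, neither ACSL6 nor FBP2 passed. With array weights, which ranged from 0.361 to 2.85 and were highest for the dye-swapped arrays, limma called 11 of these probes in frozen embryos, 4 in vitrified embryos and 9 in the contrast. The same weights called 18.2%, 11.7% and 3.73% of all probes in the frozen, vitrified and contrast comparisons, and 24, 11 and 8 of the 102 pathway genes in that order. Of these 102 genes limma called 1 in frozen embryos at an adjusted p of 0.1, against 0.608% of all probes. With 1 array left out it called 0 to 2. The 2 came without vitrified replicate 1, where 1.67% of all probes were called. A random replicate block (consensus correlation -0.10) gave 6 called probes in frozen embryos in place of 5, with 0.198% of all probes called. It changed no call of a gene's brightest probe. A fixed replicate block gave 0 calls in the contrast, where the main fit also gave 0 among all probes. With no call to lose, that count cannot show whether pairing matters. The cause of these changes was not tested.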
